A study of Mus musculus with 8 samples.

Results

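The genes examined here are nuclear-encoded genes of respiratory complexes II to V, a set that leaves out subunits with other symbols. They were taken by symbol, as the protein-coding genes Sdha to Sdhd and those starting with Uqcr, Cox4i, Cox5, Cox6, Cox7, Cox8 or Atp5, and Cox7a1 and Cox8b were left out. This gave 45 of the 51789 genes in the count table, with 4 in complex II, 8 in complex III, 16 in complex IV and 17 in complex V. A pair of members with a family symbol are not classical subunits, namely Cox7a2l, a factor that joins complexes into supercomplexes, and Atp5s, a coupling or assembly factor of ATP synthase. RNA had been sequenced from whole mammary glands of female C57BL/6 mice collected 6 weeks after a single injection of small extracellular vesicles (sEVs), and the age of the mice is not given in the sources used here. Glands of the first group received sEVCTRL, prepared from medium that no cells had conditioned (treatment label control, 3 libraries). The other groups received sEVs released by AT3, a mouse mammary adenocarcinoma line that metastasizes, kept in normoxia (sEVNORM, labelled normoxia exosomes, 3 libraries) or hypoxia (sEVHYP, labelled hypoxia exosomes, 2 libraries). Both sEVNORM and sEVHYP come from the same AT3 line, and no group was left without an injection.

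Oxidative phosphorylation passes electrons along the inner mitochondrial membrane and uses the resulting proton gradient to make ATP. Complex II, succinate dehydrogenase, feeds electrons from the citric acid cycle into ubiquinone, complex III passes them to cytochrome c, and complex IV passes them to oxygen. Complex V, ATP synthase, makes ATP as protons flow back, and adipocytes, muscle fibers and secretory epithelium differ in how much of this machinery they hold.

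Total counts per library were 18194996 to 24622569, and the members held 0.780% to 1.03% of them. The level of a gene in a library is given in CPM, its counts scaled by library size after TMM normalization. Markers of adipocytes, luminal and basal epithelium, fibroblasts, endothelium and leukocytes were present in all 8 libraries. Of the markers, Krt2 of keratinocytes was at 0 in all of them. Skeletal muscle was unevenly represented, and the summed CPM of 18 muscle markers was 855, 10829 and 2979 in the sEVCTRL libraries, 3707, 46.1 and 1832 with sEVNORM, and 5854 and 15787 with sEVHYP. In whole glands, fewer cells of a type and less RNA per cell cannot be told apart. The study describes its groups by animals, but the labels do not tie each replicate to an animal, so P values measure only the spread between these libraries, which may be technical in part.

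Levels between genes were compared per kb of exon (FPKM, the mean over 8 libraries). Uqcrb, the ubiquinone-binding subunit of complex III, had the highest at 629 FPKM, followed by Cox6a1 at 399 and Cox8a at 355. This order depends on the length used, and per kb of the longest transcript Uqcrb (975 FPKM) was followed by Atp5h, which moved from 347 to 593 FPKM, ahead of Cox6a1 at 452 and Cox8a at 400.0. The lowest tested members were Cox6b2, a testis form, at 1.06 FPKM, the oxygen-responsive Cox4i2 at 1.98 and Atp5g1 at 7.23. Cox7b2 and Cox8c, forms known from testis, had 0 counts in all 8 libraries, which allows up to 3 counts in each, and were not tested. The other 43 members passed the filter on low counts.

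Promoter sequences of the members are described here, and their part in the members' values was not tested. RefSeq promoters (GRCm38.p6, 250 bases before to 50 after the start) matched 34 of the 45 members. The 250 bases before the start are printed for Sdhd, Cox7c and Atp5g3, the members that passed an unadjusted P of 0.05 between sEVHYP and sEVNORM in edgeR. Also printed are Uqcr11 and Cox6a1, which hold matches of 2 motifs, as do some members not printed, such as Sdhb. The last is Cox7a2l, the member with a lower fitted level with sEVHYP than with sEVNORM. All lie on the minus strand, at chr9:50603850-50604099, chr13:86046796-86047045, chr2:73911327-73911576, chr10:80406822-80407071, chr5:115348959-115349208 and chr17:83514334-83514583, and are written 5′ to 3′ along the gene. Capitals mark a match on either strand to GCGCATG (NRF1), CCGGAAG (GABPA and the ETS family), ATGGCGG (YY1) or AAGGTCA (estrogen-related receptors). RefSeq's start was used, and part of a window can be transcribed where another annotation starts farther upstream, as GENCODE does for Cox7c, Cox7a2l, Cox6a1 and Uqcr11.
Sdhd: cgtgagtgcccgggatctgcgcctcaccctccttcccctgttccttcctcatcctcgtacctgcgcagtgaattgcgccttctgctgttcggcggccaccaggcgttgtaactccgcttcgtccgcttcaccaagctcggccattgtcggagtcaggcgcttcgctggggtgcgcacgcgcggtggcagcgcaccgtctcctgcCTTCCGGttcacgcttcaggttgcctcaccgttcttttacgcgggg
Cox7c: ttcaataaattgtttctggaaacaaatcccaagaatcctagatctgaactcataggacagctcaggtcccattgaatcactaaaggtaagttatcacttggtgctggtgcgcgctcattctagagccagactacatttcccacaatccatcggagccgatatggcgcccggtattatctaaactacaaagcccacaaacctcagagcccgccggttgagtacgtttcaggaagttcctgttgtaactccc
Atp5g3: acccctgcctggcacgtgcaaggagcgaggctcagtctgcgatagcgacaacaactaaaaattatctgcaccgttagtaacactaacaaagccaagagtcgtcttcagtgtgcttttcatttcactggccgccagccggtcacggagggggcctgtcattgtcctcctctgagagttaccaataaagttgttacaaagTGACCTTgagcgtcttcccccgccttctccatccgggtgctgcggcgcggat
Uqcr11: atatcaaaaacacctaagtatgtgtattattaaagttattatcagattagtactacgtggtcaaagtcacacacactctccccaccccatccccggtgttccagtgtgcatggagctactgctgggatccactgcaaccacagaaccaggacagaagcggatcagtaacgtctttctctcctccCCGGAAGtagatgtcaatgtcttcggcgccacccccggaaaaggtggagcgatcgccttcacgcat
Cox6a1: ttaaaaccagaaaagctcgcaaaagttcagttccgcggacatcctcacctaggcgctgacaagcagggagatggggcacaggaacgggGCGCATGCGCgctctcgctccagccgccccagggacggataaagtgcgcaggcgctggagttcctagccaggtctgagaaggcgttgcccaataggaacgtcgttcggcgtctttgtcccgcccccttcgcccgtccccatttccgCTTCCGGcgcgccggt
Cox7a2l: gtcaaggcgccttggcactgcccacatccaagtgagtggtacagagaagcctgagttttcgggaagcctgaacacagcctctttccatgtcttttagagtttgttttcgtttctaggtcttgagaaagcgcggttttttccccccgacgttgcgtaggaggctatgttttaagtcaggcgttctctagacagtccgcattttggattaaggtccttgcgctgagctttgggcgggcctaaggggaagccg

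In Sdhd, the ETS match began 46 bases before the start, and in Uqcr11 it began 66 bases before it, while the NRF1 match of Uqcr11 spans the start and lies partly outside the printed bases. Cox6a1 held overlapping NRF1 matches on both strands, 162 and 159 bases before the start, and an ETS match at 16 bases. Atp5g3 held a match for the estrogen-related receptors at 52 bases, and the printed stretches of Cox7c and Cox7a2l held no match. Over the 34 members, the whole windows held NRF1 matches in 8 (23.5%, against 4.41% of 27025 genes with a promoter) and ETS matches in 12 (35.3%, against 9.93%). The receptor motif was in 5 members (14.7%, against 5.38%), and ATGGCGG of YY1 in 2 (5.88%, against 4.69%). GGGCGG of the SP family was in 14 (41.2%, against 38.2%), ACGTG of the hypoxia response element in 10 (29.4%, against 21.8%) and TATAAA in 2 (5.88%, against 15.7%). The median GC content of the windows was 56.5% for members and 52.7% for all genes. These shares are descriptions of letters, which do not show binding.

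The first question was whether glands exposed to hypoxic sEVs differed from those exposed to normoxic sEVs. Nearly all members had a higher fitted level with sEVHYP than with sEVNORM, by a small amount. The median log2 fold change of the 43 tested members was 0.25, 42 of them were higher, and the share of higher levels among all genes tested was 47.0%. The 4 complexes had similar medians, at 0.26 for complex II, 0.28 for complex III, 0.26 for complex IV and 0.25 for complex V. By gene, 3 members had an unadjusted P under 0.05, where 3.95% of all genes did (edgeR quasi-likelihood F-test), and 0 passed Benjamini-Hochberg adjustment (smallest adjusted P = 0.9998). Both sEVHYP libraries were above all 3 sEVNORM libraries for 31 of 43 members, against 12.3% of all genes, and below them for 1 member, against 10.5%.

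**Figure D1:**
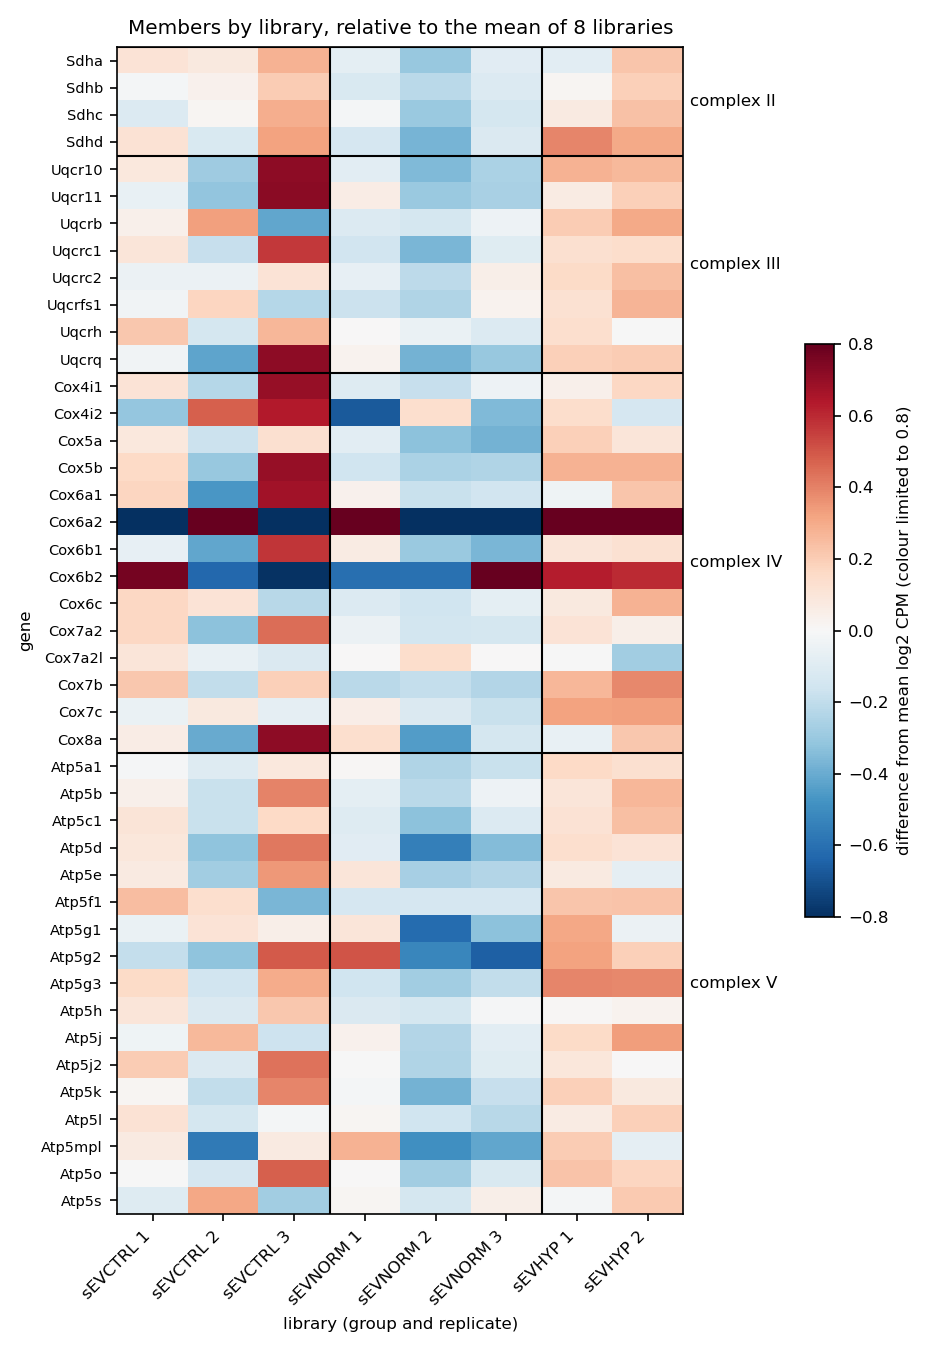
Difference of each tested member's log2 CPM in a library from its median over the other libraries, a reference that the figure labels call the mean. Genes are rows grouped by complex and libraries are columns grouped by treatment (colour limited to 0.8 in either direction). Measured against the mean of the 8 libraries instead, 38 of 43 members were higher in each sEVHYP library and 2 in sEVNORM replicate 2. The highest of the 8 values was in sEVCTRL replicate 3 for 22 members.

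**Figure D2:**
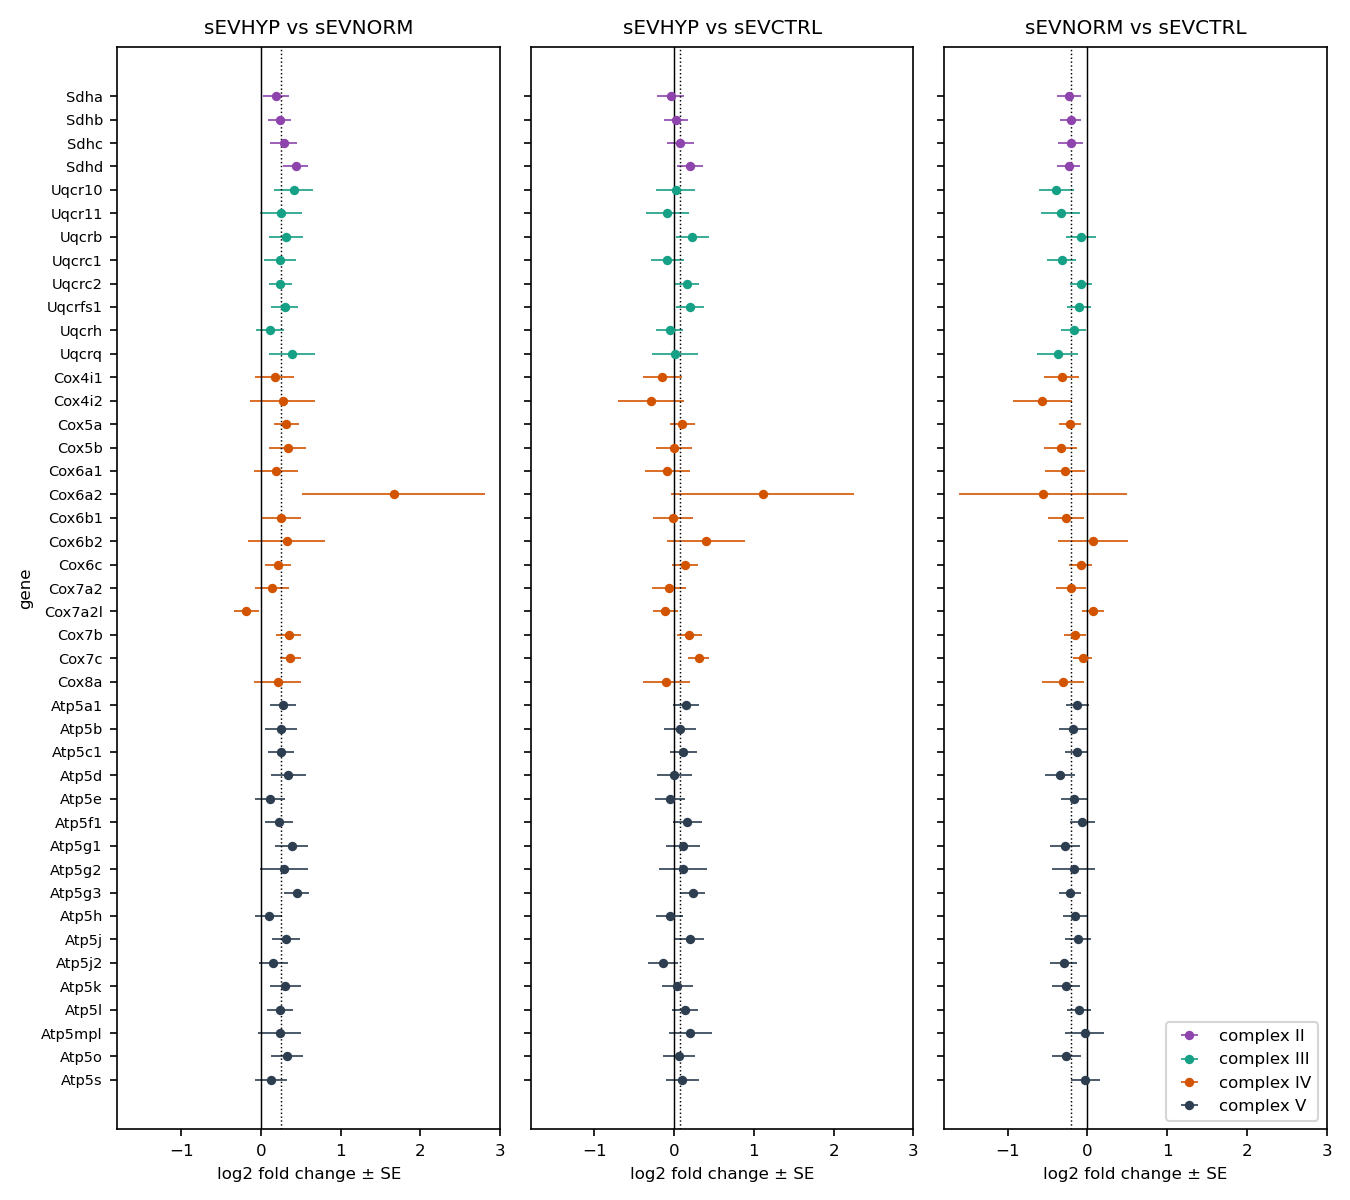
Fitted log2 fold change (points) and its SE (bars) of each tested member in the 3 comparisons, colored by complex, with the median of the members as a dotted line. Values lie to the right of 0 for 42 members against sEVNORM, on both sides of 0 against sEVCTRL, and to the left for 41 members in sEVNORM against sEVCTRL.

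In complex II, Sdhd (ENSMUSG00000000171, chr9:50596357-50603812, minus strand, GRCm38), a membrane anchor of succinate dehydrogenase, was at 69.5 and 65.5 CPM with sEVHYP and at 52.2, 44.3 and 53.0 CPM with sEVNORM. Its groups did not overlap, and the log2 fold change was 0.44 (SE 0.16, unadjusted P = 0.0225, edgeR adjusted P = 0.9998), or 35.4% higher. The other anchor, Sdhc, was at 147 and 164 CPM against 139, 114 and 128 CPM, with a log2 fold change of 0.29 (SE 0.17) and no overlap. Sdhb, the iron-sulfur subunit, was at 167 and 188 CPM against 154, 144 and 155 CPM, again without overlap and with a log2 fold change of 0.24 (SE 0.15). Sdha, the flavoprotein that oxidizes succinate, overlapped between these groups, since 1 sEVHYP library (334 CPM) lay just under the highest sEVNORM library (335 CPM).

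All 8 complex III members had a higher fitted level, with log2 fold changes of 0.12 (Uqcrh, the hinge protein that helps cytochrome c bind) to 0.41 (Uqcr10, a small subunit). Uqcr10 was at 83.8 and 82.5 CPM with sEVHYP and at 68.9, 57.1 and 61.4 CPM with sEVNORM, with an SE of 0.25 for the log2 fold change. Both sEVHYP libraries were above all sEVNORM libraries for 7 of the 8 members, against 12.3% of all genes. Uqcrb, Uqcr11 and the core subunits Uqcrc1 and Uqcrc2 were among them. The Rieske iron-sulfur protein Uqcrfs1, which carries electrons toward cytochrome c, was at 255 and 283 CPM against 213, 203 and 240 CPM (log2 fold change 0.30, SE 0.17). None of these members had an unadjusted P under 0.05 in the edgeR model of all 8 libraries, where 3.95% of all genes did. On only the groups compared, edgeR gave Uqcr10 and Uqcrq, another small subunit, an unadjusted P under 0.05 (5.98% of all genes). It did so for Uqcr10 with the replicate block (4.31% of all genes) and without sEVCTRL replicate 3 (4.39%).

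In complex IV, Cox7c (ENSMUSG00000017778, chr13:86044816-86046904, minus strand), a small nuclear-encoded subunit, was at 165 and 166 CPM with sEVHYP, against 137, 127 and 121 CPM with sEVNORM. The log2 fold change was 0.37 (SE 0.14, unadjusted P = 0.0232, edgeR adjusted P = 0.9998). A pseudogene near-identical to Cox7c, Gm10012, held 9.71% of the counts of both, so the split of reads between them is uncertain. Cox7b, another small subunit, was at 430 and 465 CPM against 352, 357 and 346 CPM (log2 fold change 0.35, SE 0.16, unadjusted P = 0.0512, edgeR adjusted P = 0.9998). Cox5a and Cox5b, nuclear-encoded subunits of the same enzyme, had log2 fold changes of 0.32 (SE 0.16) and 0.33 (SE 0.23). Cox7a2l was the exception among all members, at 142 and 117 CPM with sEVHYP and at 142, 156 and 142 CPM with sEVNORM. Its log2 fold change was -0.18 (SE 0.15), and the higher sEVHYP library was below the lowest sEVNORM library by under 1 CPM.

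In complex V, Atp5g3 carried the lowest P among the members. This gene (ENSMUSG00000018770, chr2:73908447-73911326, minus strand) encodes the c subunit, which forms the rotating ring of ATP synthase. It was at 292 and 290 CPM with sEVHYP and at 221, 204 and 216 CPM with sEVNORM, a log2 fold change of 0.45 (SE 0.15, unadjusted P = 0.0173, edgeR adjusted P = 0.9998). The c subunit has 3 genes that encode the same mature protein, and Atp5g3 supplied 71.5% to 81.4% of their transcripts per kb in every library. Atp5g1 and Atp5g2 had log2 fold changes of 0.39 (SE 0.21) and 0.29 (SE 0.30), with overlapping groups. A copy of Atp5g1, Gm10039, held 20.1% of the counts of both. The subunits of the catalytic head, Atp5a1 (alpha), Atp5b (beta) and Atp5c1 (gamma), had log2 fold changes of 0.27 (SE 0.16), 0.25 (SE 0.20) and 0.25 (SE 0.17), with no overlap between groups. Atp5o, the subunit that ties the head to the stator, was at 214 and 205 CPM against 182, 151 and 168 CPM (log2 fold change 0.33, SE 0.20). The lowest log2 fold change in this complex was that of Atp5h, the d subunit of the stator, at 0.10 (SE 0.17).

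**Figure D3:**
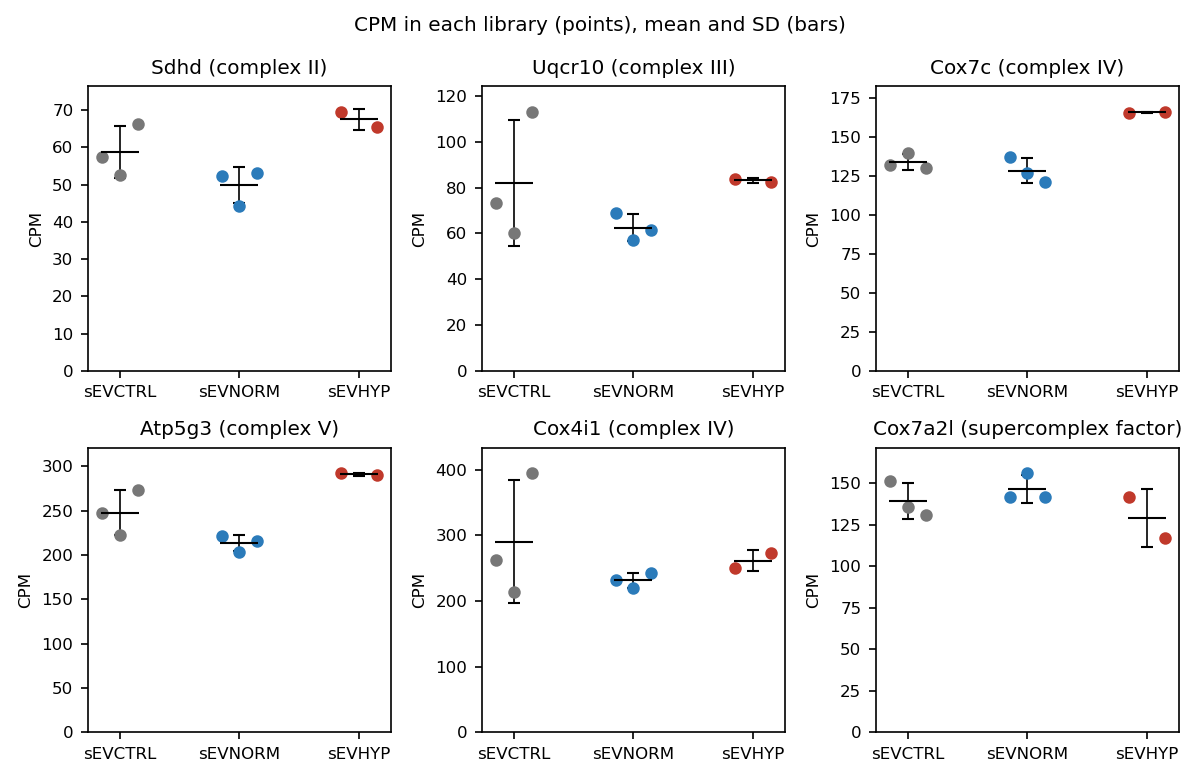
CPM of 6 members in each library (points) by treatment, with the group mean and SD (bars), on axes that start at 0. Both sEVHYP points lie above all sEVNORM points for Sdhd, Uqcr10, Cox7c, Atp5g3 and Cox4i1, and sEVCTRL replicate 3 is the highest point for Uqcr10 and Cox4i1.

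The calls moved with single libraries, whereas the direction of the members did not. In every fit that left out 1 library, 42 of 43 members were higher with sEVHYP than with sEVNORM, and the median log2 fold change was 0.21 to 0.30. Without sEVNORM replicate 2, 32 members lay above both remaining sEVNORM libraries, where 17.9% of all genes did, and only Atp5g3 had an unadjusted P under 0.05. In that fit 2.84% of all genes did. Without sEVHYP replicate 1 or replicate 2, 0 members did, against 4.42% and 2.21% of all genes. There were 6 members without sEVNORM replicate 1 (3.26% of all genes) and 7 without sEVCTRL replicate 3 (4.39% of all genes), a library that enters this comparison only through the shared estimate of spread. The study used DESeq2 between 2 groups, and whether its fits held the other libraries is not stated. DESeq2 on the 5 libraries of these groups gave 9 members with an unadjusted P under 0.05 (6.56% of all genes). Of the members, 0 had an adjusted P under 0.05 (smallest 0.0969), with 82 such genes in the whole table. DESeq2 on all libraries gave 4 members with an unadjusted P under 0.05 (4.79% of all genes), and the smallest adjusted P was 0.445. Of the 18 muscle markers, 16 were higher with sEVHYP than with sEVNORM (median log2 fold change 2.47) and 0 were at 0 in all libraries. With their mean as a covariate 40 of 43 members were higher (median 0.21), with Atp5g3 as the only one under an unadjusted P of 0.05 (4.59% of all genes). Lymphocyte markers had lower fitted levels with sEVHYP than with sEVNORM, for 5 of 5 B cell markers (median log2 fold change -0.52) and 5 of 5 T cell markers (median -0.28), with 0 of either under an unadjusted P of 0.05 in edgeR. The B cell markers summed to 1349 and 635 CPM with sEVHYP and to 1322, 2149 and 875 CPM with sEVNORM, and sEVHYP replicate 2 was the lowest of the 8 libraries for 5 of 5 of them and for 4 of 5 T cell markers. The T cell markers summed to 323 and 184 CPM against 294, 367 and 267 CPM, so both sums overlapped between the groups, and their part in the members' values was not tested.

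The question of the second comparison was whether sEVHYP differed from the control preparation. Here the members did not move one way, and 28 of 43 were higher with sEVHYP than with sEVCTRL, where 47.5% of all genes were. The median log2 fold change was 0.07, with 0.05 for complex II, 0.02 for complex III, -0.01 for complex IV and 0.11 for complex V. Cox7c alone had an unadjusted P under 0.05 (2.45% of all genes in edgeR), at 132, 139 and 130 CPM with sEVCTRL against 165 and 166 CPM. Its log2 fold change was 0.31 (SE 0.14, unadjusted P = 0.0494, edgeR adjusted P = 0.9999), and the call was lost in 14 of 17 alternative settings. Only 3 of the settings kept it, among them the fit without sEVCTRL replicate 2. In that fit Cox6a2 also had an unadjusted P under 0.05 (8.32% of all genes did). Every other fit with 1 library left out had 0 calls (1.92% to 2.76% of all genes). Both sEVHYP libraries were above all sEVCTRL libraries for 5 members (6.70% of all genes) and below them for 0 members (6.08% of all genes).

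The 5 members were Uqcrc2, a core subunit of complex III, Cox7b, Cox7c, Atp5a1, the alpha subunit of the catalytic head of ATP synthase, and Atp5g3. Each was also above all 3 sEVNORM libraries, and 3.44% of all genes were above the other 6 libraries in this way. Uqcrc2 was at 232 and 246 CPM with sEVHYP and at 207, 208 and 224 CPM with sEVCTRL, a log2 fold change of 0.16 (SE 0.15). Atp5a1 was at 550 and 539 CPM against 493, 461 and 522 CPM, a log2 fold change of 0.15 (SE 0.16). Both values were close to their SE, and for 35 of the 43 members the log2 fold change was smaller than its SE. The highest log2 fold change in complex III was that of Uqcrb, at 0.23 (SE 0.21), and the lowest that of Uqcr11, a small subunit, at -0.09 (SE 0.27). In complex V, Atp5g3 was highest at 0.23 (SE 0.15), and Atp5j2, the f subunit, was lowest at -0.14 (SE 0.19). In complex IV the tissue forms Cox6a2 and Cox4i2 were at the ends, as described further on.

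The remaining comparison, of sEVNORM with sEVCTRL, involved no hypoxic sEVs. Fitted levels were lower with sEVNORM for 41 of 43 members, with a median log2 fold change of -0.21, while 49.8% of all genes were higher. The exceptions were Cox6b2 and Cox7a2l, both at 0.07. By complex, the medians were -0.22 for complex II, -0.25 for complex III, -0.24 for complex IV and -0.17 for complex V. In edgeR, 0 members had an unadjusted P under 0.05, against 1.62% of all genes, and DESeq2 on the groups compared also gave 0 (1.43% of all genes). All sEVNORM libraries were below all sEVCTRL libraries for 3 members (2.17% of all genes) and above them for 0 (2.69%). These were Sdha at 335, 286 and 332 CPM against 361, 353 and 406 CPM, Sdhb, and Atp5g3 at 221, 204 and 216 CPM against 247, 222 and 273 CPM. For Atp5g3 the highest sEVNORM and the lowest sEVCTRL library differed by about 1 CPM, so these groups nearly touched. The lowest log2 fold changes were -0.39 (SE 0.22) for Uqcr10 in complex III, -0.57 (SE 0.37) for Cox4i2 in complex IV and -0.34 (SE 0.19) for Atp5d, the delta subunit of the central stalk, in complex V. Uqcrb at -0.08 (SE 0.19) and Atp5s at -0.03 (SE 0.18) were closest to 0 in their complexes.

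The 3 comparisons share libraries, so their fold changes are not independent of each other. The sEVNORM libraries had the lowest group mean of the members, and they enter 2 of the comparisons. Relative to the mean of 8 libraries, the mean log2 level of the members was -0.01, -0.07 and 0.20 in the sEVCTRL libraries, -0.01, -0.30 and -0.13 with sEVNORM, and 0.14 and 0.18 with sEVHYP. The group means were 0.04 ± 0.14 (SD, n = 3), -0.15 ± 0.15 (SD, n = 3) and 0.16 ± 0.03 (SD, n = 2). The sEVHYP libraries were thus close to each other and exceeded every sEVNORM library, while sEVCTRL replicate 3 was above both of them.

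A pair of libraries set much of this spread. sEVCTRL replicate 3 had the highest of the 8 values for 22 of 43 members and the lowest for 5, and sEVNORM replicate 2 had the lowest for 21. In replicate 3 of sEVCTRL, the deviations of the members also went partly with base composition. In this library, 19 members were over 0.3 log2 units above their median in the other libraries, with a median transcript GC content of 53.0%. As far below it were 4 members, namely Atp5f1, Cox6a2, Cox6b2 and Uqcrb, with a median of 46.6%. Among these 4, Cox6a2 (52.8%) and Cox6b2 (55.7%) did not have a low GC content, and Cox6b2 was at 0.766 CPM in this library. Cox4i1, a regulatory subunit of complex IV, was at 395 CPM there, and at 213 to 273 CPM in the other 7 libraries. Uqcrb was at 408 CPM there, the lowest of its 8 values, and at 494 to 663 CPM elsewhere.

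Across the 43 members, which share this library and its depth, the deviation from the median of the other libraries was set against GC content. The Spearman correlation was 0.55 in sEVCTRL replicate 3 and 0.45 over all genes tested. It was -0.54 in sEVCTRL replicate 2 (-0.25 over all genes) and -0.44 in sEVNORM replicate 2 (-0.21). Without sEVCTRL replicate 3, 39 of 43 members were higher with sEVHYP than with sEVCTRL (median 0.18). The median turned to -0.01 without sEVCTRL replicate 1 or replicate 2, with 21 of 43 members higher in each case. Against sEVCTRL, sEVNORM had a median of -0.09 without sEVCTRL replicate 3, and without sEVCTRL replicate 2 it was -0.28, with 10 members at an unadjusted P under 0.05 in edgeR. The share of all genes under 0.05 was also higher in that fit, at 5.75%. Without sEVNORM replicate 1 there were 2 members, against 1.91% of all genes. The part of base composition in these values was not tested.

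White adipocyte markers, like the members, were highest in sEVCTRL replicate 3 and lowest in sEVNORM replicate 2, but differed from them in sEVHYP replicate 1. Relative to the mean of 8 libraries, the mean log2 level of 11 such markers was 0.56 in sEVCTRL replicate 3, which was highest for 8 of them, and -0.67 in sEVNORM replicate 2, which was lowest for 9. It was -0.30 in sEVHYP replicate 1, where the members were at 0.14, and 0.32 in sEVHYP replicate 2, where they were at 0.18. Their summed CPM was 8010 to 12824 with sEVCTRL, 6640 to 10776 with sEVNORM, and 7631 and 11840 with sEVHYP, so the groups overlapped. Between sEVNORM and sEVCTRL their median log2 fold change was -0.22, with 10 of 11 lower, and between sEVHYP and sEVNORM it was 0.09, with 6 of 11 higher. None of the 11 was at 0 in all libraries, and the part of adipocyte content in the members' values was not tested.

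**Figure D4:**
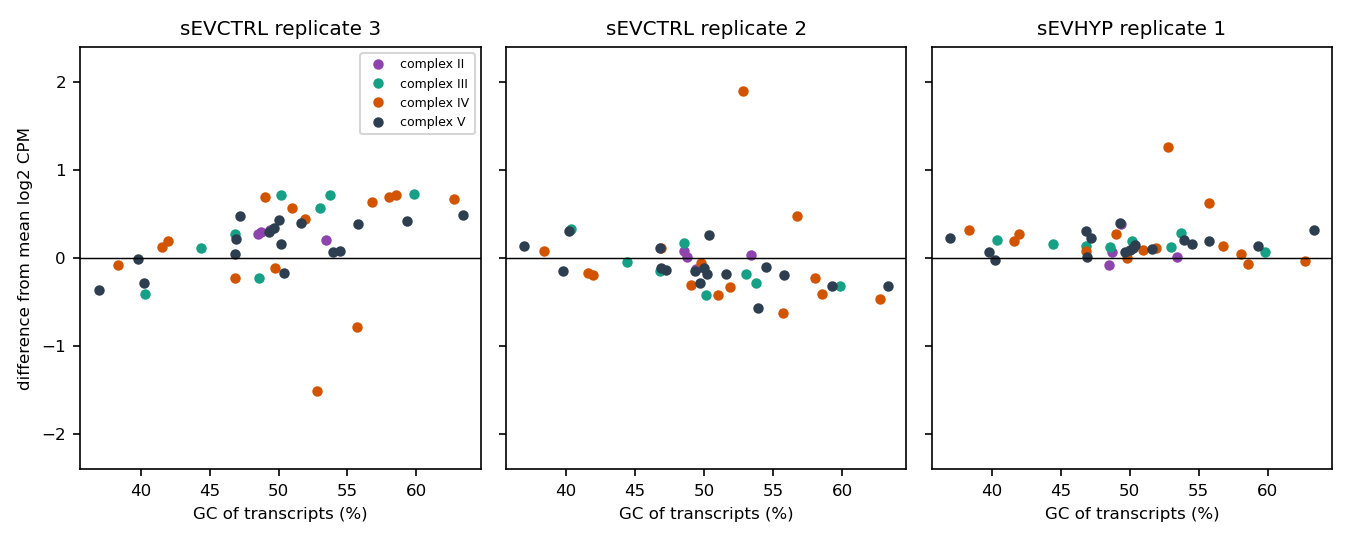
Difference of each tested member's log2 CPM from its median over the other libraries (vertical axis, where the label calls this reference the mean). The horizontal axis is the GC content of its longest transcript (percent), and points are colored by complex. Panels show sEVCTRL replicates 3 and 2 and sEVHYP replicate 1. Values climb with GC content in sEVCTRL replicate 3 (rho 0.55), decline in sEVCTRL replicate 2 (rho -0.54), and the highest point in the latter and in sEVHYP replicate 1 is Cox6a2.

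Some subunits of complex IV exist in tissue forms. Cox6a2 is the form of heart and skeletal muscle and Cox6a1 the form of most tissues. Cox6a2 was at 1.68, 32.3 and 6.24 CPM in the sEVCTRL libraries, 17.9, 0.887 and 8.61 CPM with sEVNORM, and 20.8 and 37.3 CPM with sEVHYP. The ratio of its highest to its lowest library was larger than for any other tested member, and its groups overlapped between sEVHYP and sEVCTRL but not between sEVHYP and sEVNORM. The log2 fold changes were 1.66 (SE 1.15) against sEVNORM and 1.11 (SE 1.14) against sEVCTRL. Ordered by the muscle markers, the libraries had nearly the same order as by Cox6a2, with sEVNORM replicate 2 lowest and sEVCTRL replicate 1 next in both. Cox6a2 made up 0.381% to 14.6% of the Cox6a transcripts per kb, and the part of muscle content in its fold changes was not tested.

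**Figure D5:**
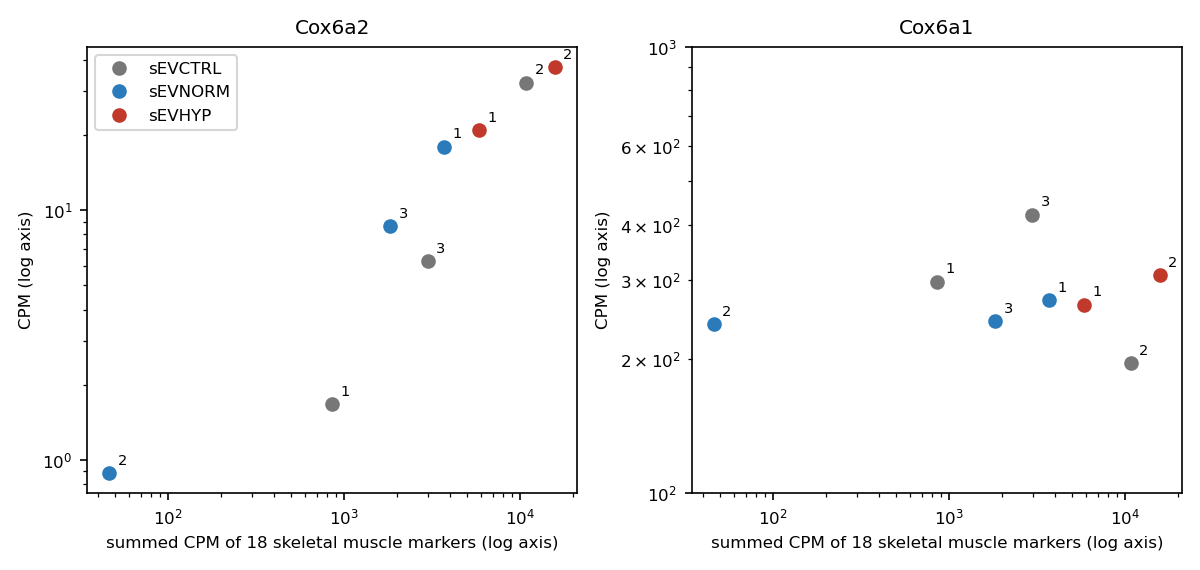
CPM of Cox6a2 (left) and Cox6a1 (right) in each library against the summed CPM of 18 skeletal muscle markers, all axes logarithmic, with numbers for replicates and colors for treatment. Cox6a2 climbs from 0.887 to 37.3 CPM along with the markers, whereas Cox6a1 stays between 196 and 421 CPM.

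Cox7a1 and Cox8b, forms of muscle and brown fat that were left out of the members, are given for comparison. Cox7a1 was at 1.57, 9.62 and 3.83 CPM with sEVCTRL, at 5.63, 2.22 and 4.64 with sEVNORM, and at 9.53 and 15.1 with sEVHYP. Cox8b was at 12.5, 17.9 and 20.7, at 13.9, 14.8 and 15.6, and at 17.0 and 27.0 CPM in the same order. The 12 brown adipocyte markers, which include both genes, summed to 43.7 to 71.7 CPM with sEVCTRL, 48.7 to 56.4 with sEVNORM, and 74.6 and 105 with sEVHYP. Both sEVHYP libraries thus lay above the other 6 in this sum, narrowly for the lower of them. The highest of the other 6, at 71.7 CPM, was sEVCTRL replicate 2, which also had the highest muscle marker sum of those 6 (10829 CPM). By Cox7a1 the libraries had nearly the same order as by the muscle markers. Of 10 tested markers, 9 had a higher fitted level with sEVHYP in either comparison. In edgeR, 1 of the 10 had an unadjusted P under 0.05 against sEVNORM (3.95% of all genes) and 2 against sEVCTRL (2.45%). After adjustment 0 passed in either comparison. Both sEVHYP libraries were above every sEVNORM library for 3 of the 10 (12.3% of all genes), and above every sEVCTRL library for 3 (6.70%). Ucp1 was at 0.321 and 6.16 CPM with sEVHYP, and at 0.0402, 2.04 and 0.331 CPM with sEVNORM. With sEVCTRL it was at 0.203, 0 and 0 CPM. Its counts were low, at 7 and 115 with sEVHYP, 1, 46 and 7 with sEVNORM, and 4, 0 and 0 with sEVCTRL. The part of these markers in the members' values was not tested.

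The remaining forms were minor. Cox4i2, known to replace Cox4i1 in lung and at low oxygen, made up 0.810% to 1.86% of the Cox4i transcripts per kb and was at 1.60 and 1.45 CPM with sEVHYP, within the range of the other groups (0.965 to 2.30 CPM). Cox6b2 made up 0.263% to 0.998% of the Cox6b transcripts. The common forms Cox6b1, Cox7a2 and Cox8a had log2 fold changes of 0.25 (SE 0.25), 0.14 (SE 0.21) and 0.21 (SE 0.29) against sEVNORM. Cox4i1 and Cox6a1 were at 0.17 (SE 0.24) and 0.19 (SE 0.28). None of these values was clearly larger than its SE.

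Other mitochondrial gene lists were described in the same way, and their counts stand beside the shares of all genes tested, of which 47.0% were higher with sEVHYP than with sEVNORM and 3.95% had an unadjusted P under 0.05. All 36 nuclear genes of complex I, the NADH dehydrogenase, were higher with sEVHYP than with sEVNORM, with a median log2 fold change of 0.24, close to that of complexes II to V, and 2 had an unadjusted P under 0.05. Against sEVCTRL, 18 of the 36 complex I genes were higher. The 16 citric acid cycle genes were all higher than with sEVNORM (median 0.31, 4 with an unadjusted P under 0.05). So were 13 of 13 genes of a list of partner proteins and subunits outside the symbol rule (median 0.29, 3 with an unadjusted P under 0.05). That list holds cytochrome c, the ADP/ATP carriers and the porins, and also Cyc1 and Ndufa4. Smaller medians were found for 78 mitochondrial ribosomal proteins (65 higher, 0.12, 2 with an unadjusted P under 0.05) and for 32 assembly factors (26 higher, 0.10, 1 with an unadjusted P under 0.05), and the share called in these lists was no higher than among all genes. Of 13 regulators of mitochondrial biogenesis, among them Nrf1, Gabpa, Tfam and Ppargc1a, 7 were higher (median 0.02) and 0 had an unadjusted P under 0.05, and of 10 oxygen-responsive genes 8 were higher (median 0.11), with 1 under 0.05. In edgeR, 0 genes on these lists had an adjusted P under 0.05, and the median log2 fold change of all genes tested was -0.02.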

How the data were processed

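The deposited values are expected counts per gene, which the authors estimated with RSEM 1.2.12 after alignment by STAR (mm10, Ensembl 89 genes), and they are whole numbers without normalization. Strand setting and rounding are not given in the sources used here. Libraries were made from polyA RNA, and the table analysed holds 0 genes of the mitochondrial chromosome. Depth was 18194996 to 24622569 counts per library, and the floor for a count of 0 is 3 counts, which covers counting error only. Symbols, positions and exon lengths came from GENCODE M21 on GRCm38.

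Members were found by symbol, and 7 pseudogenes were left out. The members and lists were chosen with earlier results of these data known. Tests used edgeR 4.0.16 under R 4.3.3. Low counts were filtered by filterByExpr (min.count 10), TMM factors were applied, and 1 model of the 3 groups was fitted for the quasi-likelihood F-test (two-sided). P values were adjusted by Benjamini-Hochberg over the 17858 genes tested. SEs were computed as the log2 fold change divided by the root of F. The procedure was tested on simulated counts in which single genes were changed by 1 or 2 log2 units. That simulation does not cover changes as small as most of the members', or shifts shared by the genes of a library. The text names all complex II members, in each other complex the members with the highest and lowest log2 fold change of each comparison, members with an unadjusted P under 0.05, the tissue forms, and the highest and lowest levels per kb. Uqcrc1, Uqcrc2, Uqcrfs1, Uqcrq, Cox5a, Cox5b, Atp5a1, Atp5b, Atp5c1, Atp5f1, Atp5o and the printed promoters were chosen after values were seen. Alternatives included DESeq2 1.42.0, other filters and size factors, a muscle covariate, a replicate block and leaving out each library. Copies were transcripts with at least 95% identity over 200 bases, and 13 members had a copy. Some members overlap a gene on the other strand (Atp5j with Gabpa, Cox6c with Vps13b, Atp5f1 with Wdr77), or on the same strand (Cox4i1 with Gm20388), and reads of such pairs may be assigned to either gene.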

Additional observations from a re-analysis of the deposited data

How the results depend on the processing

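The direction of the members between sEVHYP and sEVNORM (median log2 fold change 0.21 to 0.31) kept its sign in all settings tried, while the number of calls changed. Against sEVNORM, members with an unadjusted P under 0.05 numbered 9 with DESeq2 (6.56% of all genes) and 7 with edgeR (5.98%) on only the groups compared. There were 4 with DESeq2 on all libraries (4.79%) and 1 with the muscle score as a covariate (4.59%). When 1 library was left out there were 0 to 7 (edgeR, 2.21% to 5.57%), where the edgeR model of all libraries gave 3 (3.95%). Against sEVCTRL, the count for sEVHYP was 0 with DESeq2 size factors, without a filter on low counts, with either tool on only the groups compared, with the muscle covariate and with the replicate block, where 1.78% to 3.28% of all genes were called, and 0 to 2 when 1 library was left out (1.92% to 8.32%). For sEVNORM against sEVCTRL it was 0 to 10 when 1 library was left out (1.26% to 5.75% of all genes). The cause of these shifts was not tested. A setting without both sEVNORM replicate 2 and sEVCTRL replicate 3 was chosen after seeing the data. In it, the count of sEVHYP against sEVCTRL was 0 (2.72% of all genes). The median of sEVNORM against sEVCTRL was -0.054, where the fits with 1 library left out gave -0.28 to -0.09. Whether replicate numbers pair the libraries could not be decided. Correlations were -0.42 to 0.37 for same-numbered libraries and -0.37 to 0.47 for the others. They used deviations centered within small groups, which ties the values of a group to each other. With the number as a replicate block, 3 members were called against sEVNORM (median 0.31), where 4.31% of all genes were. The count was 0 for sEVHYP against sEVCTRL (2.25% of all genes) and 0 for sEVNORM against sEVCTRL (1.41%). The calls of Sdhd, Cox7c and Atp5g3 against sEVNORM were lost in 4, 7 and 2 of 17 settings. Each sEVHYP value rests on 2 libraries, and depth limits only the lowest members, such as Cox6b2 and Cox4i2.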
